A study of Mus musculus with 2 samples.

Results

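The genes described here encode the oocyte linker histone H1FOO, replication-independent histone variants and the chaperones that carry histones to and from DNA. A list of 10 genes was chosen by role, with their FPKM values in these libraries already known, and was matched to the gene identifiers of the deposited expression table. Of the 10, 8 were found among its 38817 genes: H1FOO, H2AFZ, H3F3A, H3F3B, NPM2, NASP, TSPYL1 and NAP1L1. H1F0, the linker histone H1.0 gene, and H2AFX, the gene of the variant phosphorylated at DNA breaks, were not analysed here.

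The series concerns spermidine, a natural polyamine, and the meiotic maturation of pig oocytes. RNA sequencing of pools of 100 oocytes gave 1 library labelled SPE, read here as spermidine-treated, and 1 control library. The labels give wild-type ICR mouse oocytes for both, with no dose or time, whereas the table places its genes on pig chromosomes. The link of the 2 libraries to their labels therefore rests on column names and numbers, and the genes below were read as pig genes.

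As background, chromosomal DNA is wound around octamers of core histones, and linker histones bind the DNA between them. An oocyte finished replicating its chromosomes before meiosis began, and histones that are made and placed without replication, such as H3.3 and H2A.Z, are known to serve it. The oocyte also stores histones, their mRNAs and their chaperones for the embryo, which has to repackage the sperm genome before its own transcription starts. Histone chaperones bind free histones, keep them from binding DNA at random and hand them on for nucleosome assembly.

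The oocyte markers were present in both libraries: 10 of 12 reached a mean of 1 FPKM, and the list summed to 2507 FPKM in the SPE library and 2658 FPKM in the control library, with values from 0.0307 to 730.3 FPKM and from 0.118 to 904 FPKM. Of 13 granulosa and cumulus markers found, 3 reached 1 FPKM, the list summed to 8.35 FPKM in the SPE library and 25.1 FPKM in the control library, and AMH and TNFAIP6 were listed at 0 in both. Single genes of that list ranged up to 5.55 FPKM in the SPE library and 10.8 FPKM in the control library. The markers of theca, stroma and endothelium summed to 0.509 and 0.683 FPKM in the SPE and control libraries, and those of blood and immune cells to 0.0242 and 0.395 FPKM. Fewer cells of a type and less RNA per cell cannot be told apart in such pools, and the part of these markers in the differences below was not tested.

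The values turned out to carry whole numbers of sequenced fragments. FPKM scales the fragments of a gene to its length and to the library, so each value is a fragment number divided by a length and a library total. With the length set to the span of the gene's locus, introns included, less 194 bases in the SPE library and 199 bases in the control library, and with library totals of 5352951 and 5492407 fragments, the values came back as whole fragments. This held for 10413 of 10544 genes above 0 in the SPE library (98.8%) and 9401 of 9519 in the control library (98.8%), among genes over 1500 bases that share no identical locus, within 0.05 of a fragment plus a relative 1e-05. All 8 members were whole in both libraries. A level in FPKM is therefore per kilobase of gene span here, not of mature transcript, and genes with long introns are listed low. Fragment numbers were not scaled for length, so neither measure gives the order of mRNA levels between genes.

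**Figure D1:**
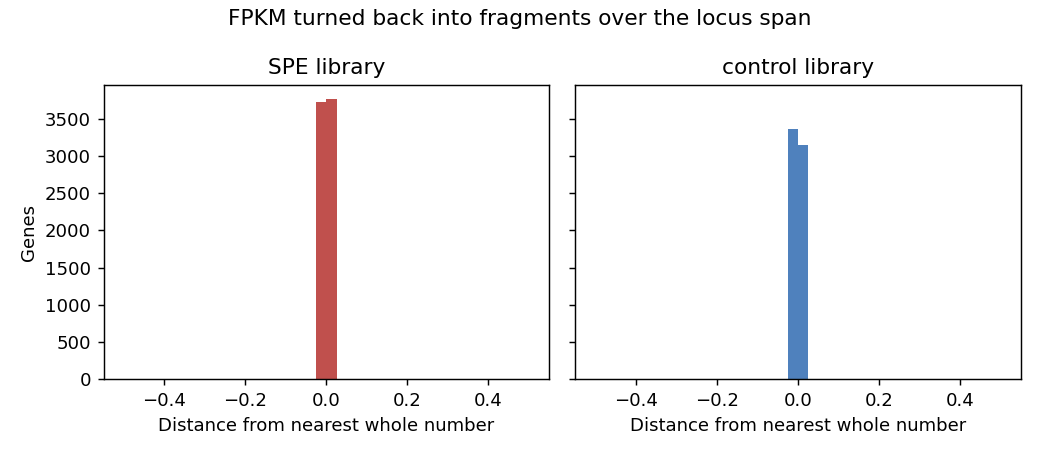
Distance of each recovered fragment number from the nearest whole number (horizontal axis, in fragments) against the number of genes (vertical axis), for genes of 1 to 100 fragments over 1500 bases that share no identical locus, in the SPE library and the control library. The bars stand close to 0 in both panels: 98.8% of such genes over all fragment numbers were whole in each library.

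H3F3B was the member with the highest FPKM. It is one of a pair of genes for H3.3, the H3 variant placed on DNA outside replication, and it lies on chromosome 12 (5578702 to 5581109). It was at 415 FPKM in the SPE library and 457 FPKM in the control library, which are 4920 and 5543 fragments over a span of 2408 bases. The SPE library was slightly lower as deposited, with a ratio of 0.909 (exact 95% counting interval 0.874 to 0.944), a log2 ratio of -0.14. Upper quartile scaling, which moves all genes alike, turned it to 0.08, against a median of 0.15 over all genes. H3F3B ranked 38th in the SPE library and 37th in the control library among all genes.

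H3F3A, the other H3.3 gene, encodes the same protein and was listed far lower. On chromosome 10 (15839603 to 15846067) it was at 0.179 FPKM in the SPE library and 0.436 FPKM in the control library, from 6 and 15 fragments. The ratio of 0.410 had a counting interval of 0.130 to 1.12, so a difference was not detectable at this depth. Of the fragments counted for the pair, not scaled for length, H3F3B held 99.9% in the SPE library (4920 of 4926, exact binomial interval 99.7 to 99.96%) and 99.7% in the control library (5543 of 5558, 99.6 to 99.8%). H3.3 genes have near-identical processed copies in mammalian genomes, and no source used here says how the authors divided reads between copies, so this split is uncertain.

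H2AFZ encodes H2A.Z, the H2A variant found around transcription start sites. On chromosome 8 (129744062 to 129745412) it was at 29.1 FPKM in the SPE library and 32.9 FPKM in the control library, from 180 and 208 fragments. The libraries were not distinguishable by counting error, with a ratio of 0.884 (0.720 to 1.08). Within a library H3F3B had 14.3 times the FPKM of H2AFZ in SPE and 13.9 times in the control, and both have short spans.

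H1FOO, the linker histone made in oocytes, was the member with the most fragments. On chromosome 13 (76146765 to 76175567) it was at 170 FPKM in the SPE library and 169 FPKM in the control library. Over its span of 28803 bases these are 25992 and 26473 fragments. It was the best counted member, and its ratio was 1.01 with a counting interval of 0.990 to 1.02. By fragments H1FOO stood first of the 8 in both libraries, with 5.28 times the fragments of H3F3B in SPE and 4.78 times in the control, whereas by FPKM it stood second, with 0.409 and 0.369 times the level of H3F3B in the SPE and control libraries. This change of order follows from the length the FPKM was divided by.

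The genes with an established symbol nearest to H1FOO in level, by the distance of log2(FPKM + 1) over the 2 libraries, were AKTIP, WEE2 and ZSWIM3. AKTIP was at 164 FPKM in SPE and 166 FPKM in the control (distance 0.056). WEE2, an oocyte kinase that inhibits CDK1, was at 161 and 171 FPKM in the SPE and control libraries (0.077), and ZSWIM3 at 172 and 184 FPKM (0.12). Across 2 libraries such likeness describes levels and nothing more.

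**Figure D2:**
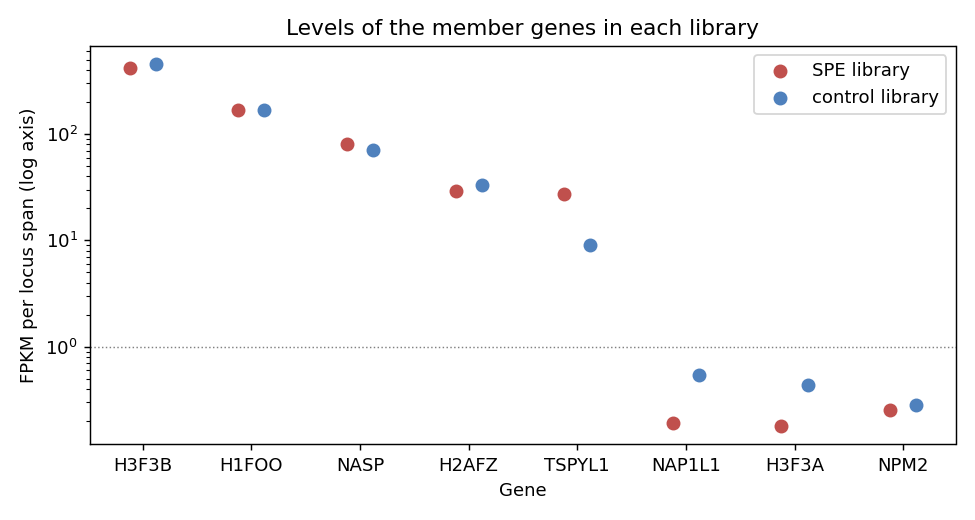
FPKM per kilobase of locus span (vertical log axis) of the 8 member genes in the SPE library and the control library, 1 library each, with a dotted line at 1 FPKM. H3F3B and H1FOO are highest, and NAP1L1, H3F3A and NPM2 lie under 1 FPKM in both libraries.

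Among the chaperone members, NASP had the highest FPKM and the most fragments in both libraries. NASP binds H3-H4 and linker histones and keeps a soluble reserve of them. Its model lies on an unplaced scaffold (15712 to 29799), where LOC106508624 shares the locus and is listed at 0 in both libraries. NASP was at 80.2 FPKM in the SPE library and 70.8 FPKM in the control library, from 5966 and 5399 fragments. It was higher in the SPE library by a ratio of 1.13 (1.09 to 1.18).

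TSPYL1 was the member with the largest difference. It belongs to the TSPY-like group of the nucleosome assembly protein family, which shares the NAP domain, and lies on chromosome 1 (92021582 to 92025154) with no overlapping gene in the table. It was at 27.5 FPKM in the SPE library and 8.96 FPKM in the control library, from 497 fragments (exact Poisson 95% interval 454 to 543) and 166 fragments (142 to 193). The ratio was 3.07 with a counting interval of 2.57 to 3.68, and the log2 ratio was 1.52 on the log2(FPKM + 1) scale. It ranked 488th among all genes in the SPE library and 1200th in the control library.

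Among 769 named genes (no provisional LOC identifier) averaging 10 FPKM or more, TSPYL1 had the highest log2 ratio, ahead of the mitochondrial folate enzyme gene MTHFD2 (1.25). Both reached that mean only through the SPE library, being at 8.96 and 8.78 FPKM in the control. The filter itself thus favours a high place for such genes, and nothing is read from the place. Of all 2608 genes averaging 100 to 1000 fragments, 21 (0.805%) had a ratio at least as high. MTHFD2 was also nearest to it in level, at 22.3 FPKM in SPE and 8.78 FPKM in the control (distance 0.29). APEX1, a base excision repair endonuclease gene, was next at 20.2 and 8.76 FPKM in the SPE and control libraries (0.43). INTS12, of the Integrator complex, followed at 19.4 and 9.28 FPKM (0.48). Since TSPYL1 was chosen with this difference known, its size is a description of these 2 libraries.

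The models next to TSPYL1 on chromosome 1 carried no fragments. LOC102161604 ends 12074 bases before it and LOC106508929 starts 25281 bases after it, and both were listed at 0 in both libraries. TSPYL4, a close relative of TSPYL1, lies nearby on chromosome 1 (92004582 to 92008615), just before LOC102161604. It was listed at 0 in the SPE library and had 8 fragments, or 0.380 FPKM, in the control library, the direction opposite to TSPYL1. A count of 0 allows up to 3 fragments as a one-sided limit. The two-sided Poisson interval used for the other counts reaches 3.69. TSPYL2, on the X chromosome, was at 2.79 FPKM in SPE and 1.23 FPKM in the control, from 104 and 47 fragments, a ratio of 2.27 (1.59 to 3.27). Without scaling for length, TSPYL1 held 82.7% of the fragments of these 3 genes in the SPE library (497 of 601, 79.4 to 85.6%) and 75.1% in the control library (166 of 221, 68.9 to 80.7%).

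NAP1L1, the best known carrier of H2A-H2B among the NAP1-like proteins, was listed under 1 FPKM in both libraries and was lower in SPE. On chromosome 5 (42892559 to 42926668) it was at 0.193 FPKM in the SPE library and 0.537 FPKM in the control library. Over its span of 34110 bases these are 35 fragments (24.4 to 48.7) and 100 fragments (81.4 to 122). The ratio was 0.359 with a counting interval of 0.237 to 0.532, the largest difference among the members towards lower values. On the log2(FPKM + 1) scale it shrank to -0.37, because the pseudocount of 1 FPKM exceeds both values.

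NPM2, nucleoplasmin 2, is known in frog as the egg chaperone that decondenses sperm chromatin. On chromosome 14 (6726207 to 6745688) it was listed at 0.252 FPKM in the SPE library and 0.283 FPKM in the control library, from 26 and 30 fragments. The libraries could not be told apart, with a ratio of 0.889 (0.505 to 1.56). NPM1, the nucleolar member of the same family, was at 60.9 and 58.3 FPKM in the SPE and control libraries, from 4671 and 4586 fragments. NPM3 was at 14.3 and 12.7 FPKM, from 200 and 182 fragments. Without scaling for length, NPM2 held 0.531% of the fragments of the 3 nucleoplasmin genes in the SPE library (0.347 to 0.777%) and 0.625% in the control library (0.422 to 0.891%). Whether its gene model covers the mRNA made in pig oocytes was not tested.

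**Figure D3:**
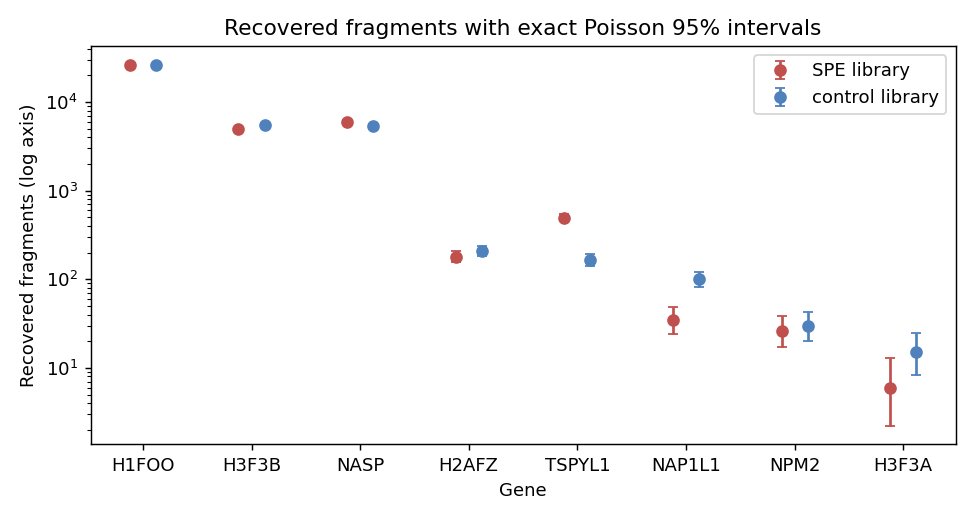
Recovered fragments (vertical log axis) of the 8 member genes in the SPE library and the control library, with exact Poisson 95% intervals that cover counting error only. TSPYL1 has 497 fragments in SPE and 166 in the control, NAP1L1 has 35 and 100, and the intervals of H3F3A (6 and 15 fragments) overlap.

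The comparison implied by the study is between oocytes matured with and without spermidine, and with 1 library per group matched to a labelled sample no replicate error and no test are given. With a mean of at least 1 FPKM, 5 of the 8 members passed the filter, and 1 of these, TSPYL1, was at or beyond 2-fold on the log2(FPKM + 1) scale. Of all 4391 genes under that rule, 4.99% were, with 2.85% higher in SPE and 2.14% lower. Over all 8 members, 3 of which did not pass the filter, the median log2 ratio was -0.09. It was -0.04 over the 4391 genes, all of which passed, so the medians cover unlike sets. Of the 5 members that passed, TSPYL1 (1.52), NASP (0.18) and H1FOO (0.01) were above 0, and H3F3B (-0.14) and H2AFZ (-0.17) below. In all, 3 members were higher in SPE (TSPYL1, NASP and H1FOO) and 5 lower, but the direction for H1FOO, H2AFZ, H3F3B and NPM2 turned round under at least 1 other scaling.

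A mean of at least 10 recovered fragments, a rule chosen after seeing the data, kept all 8 members. Without a pseudocount, 3 of them were then at or beyond 2-fold: TSPYL1 was higher in SPE, and NAP1L1 and H3F3A were lower. H3F3A, with 6 fragments in SPE and 15 in the control, reached that mean only through the control library. Its counting interval of 0.130 to 1.12 included a ratio of 1. Under this rule 19.7% of 7979 genes were beyond 2-fold, with 11.0% higher and 8.65% lower, and 1448 of these 1569 genes had under 100 fragments. Among genes of 10 to 100 fragments, 8.23% had a ratio as low as that of NAP1L1 and 10.5% one as low as that of H3F3A. The members were chosen with this contrast in view, so nothing is read from their count.

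The counting intervals cover the sampling of fragments only. The interval excluded a ratio of 1 for 4 members (H3F3B, NASP, TSPYL1 and NAP1L1), but it did so for 47.1% of the 7979 genes as well. That share was 41.2% at 10 to 100 fragments, 50.0% at 100 to 1000 and 68.7% at 1000 or more. For H3F3B and NASP, each above 1000 fragments, an interval that excludes 1 is thus what most genes of that depth showed. Variation between oocyte pools was not estimated. The table's further columns Con2 and SPD2, by their names a second control and a second spermidine column, match no labelled sample and were not used, so whether the differences of TSPYL1 and NAP1L1 hold there was not analysed here.

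**Figure D4:**
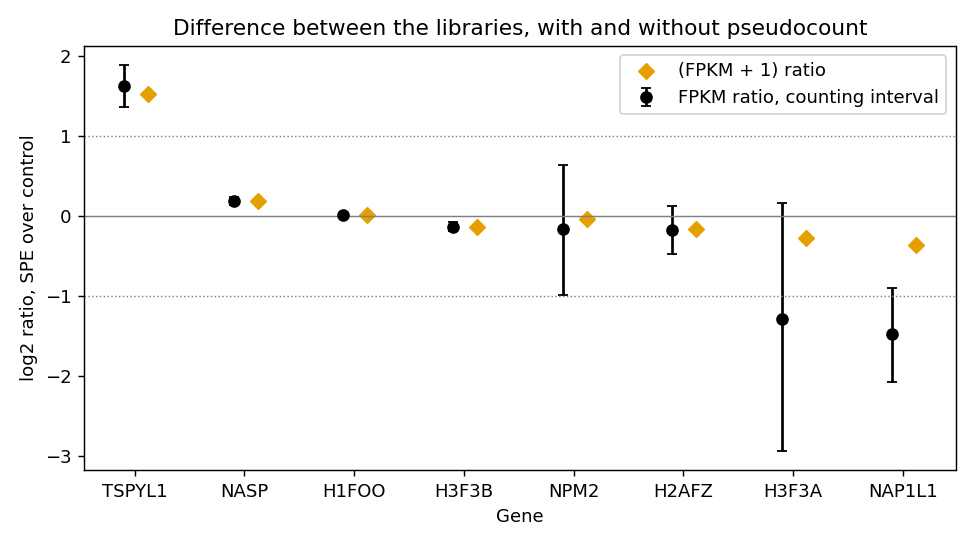
The log2 ratio of SPE over control for the 8 member genes, from FPKM without a pseudocount (circles, with exact 95% counting intervals) and from FPKM + 1 (diamonds), with dotted lines at 2-fold. TSPYL1 lies above the upper line on both scales, whereas NAP1L1 and H3F3A lie under the lower line only without the pseudocount.

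To place the members among their partners, 59 genes of 6 lists of histones, chaperones and histone mRNA processing were found, 51 of them not members. Of these 59, 27 had a mean of at least 1 FPKM, with 15 higher and 12 lower in SPE, and TSPYL1 was the 1 gene at or beyond 2-fold, beside 4.99% of all genes under that rule. With at least 10 recovered fragments, 45 genes were kept, of which 4 were at least 2-fold higher (TSPYL1, TSPYL2, NAP1L2 and HAT1) and 3 at least 2-fold lower (NAP1L1, H3F3A and ATRX). Of all genes under that rule 11.0% were higher and 8.65% lower, so the lists held no larger share than the table. H3F3A was counted although its counting interval included a ratio of 1. Apart from the highest gene of each list and TSPYL1, the list genes named here were chosen after their values were seen. 7 genes gave no whole fragments, each over a locus that overlaps another gene, and 4 were listed at 0 in both libraries. PTMA, which most cells express, was among the 4, so a value of 0 may also mean a failed estimate.

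The linker histone list had H1FOO as its sole gene in the table. Of 5 core histone variants, 3 reached 1 FPKM and all 3 were lower in SPE, with a median log2 ratio of -0.14 on the log2(FPKM + 1) scale, against -0.04 over all 4391 genes. Upper quartile scaling, which moved the median of all genes to 0.15, put all 3 above 0 with a median of 0.08, still below that of all genes. The third beside H3F3B and H2AFZ was CENPA, the H3 variant of centromeres, at 41.4 FPKM in SPE and 44.4 FPKM in the control (1889 and 2080 fragments; ratio 0.931, 0.875 to 0.992). Macro-H2A, encoded by H2AFY, had 61 fragments in SPE and 49 in the control. The replication-dependent genes found were HIST1H2BD, at 0.0636 and 0.352 FPKM in the SPE and control libraries, and HIST1H3E, at 0.132 FPKM in SPE and listed at 0 in the control. Their loci overlap other genes and their values gave no whole fragments.

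In the nucleoplasmin, NAP1 and TSPY-like list 8 of 12 genes reached 1 FPKM, 7 of them higher and 1 lower in SPE. Their median log2 ratio was 0.22, against -0.04 over all 4391 genes. Under each scaling tried, 7 or 8 of the 8 were higher. NAP1L3, among the higher genes, overlaps FAM133A and gave no whole fragments. The filter left out NAP1L1, NPM2 and TSPYL4, all lower in SPE as deposited, and NAP1L5, listed at 0 in both libraries. The 8 genes therefore do not stand for the whole list. The 9 genes of at least 10 recovered fragments, NAP1L1 and NPM2 included, had a median of 0.17 without a pseudocount. That median was -0.007 over all genes under the fragment rule. SET, the highest gene of the list and a NAP family chaperone that also inhibits histone acetylation, was at 106 FPKM in SPE and 88.9 FPKM in the control (3553 and 3047 fragments; ratio 1.20, 1.14 to 1.26). NAP1L2, an X-linked relative of NAP1L1, had 34 fragments in SPE and 16 in the control (ratio 2.18, 1.17 to 4.22). NAP1L4 had 1114 and 1145 fragments in the SPE and control libraries (ratio 0.998, 0.918 to 1.08). The counting intervals of NAP1L1, NAP1L2 and NAP1L4 did not overlap each other, and no test between these genes was made.

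The list of H3-H4 chaperones had a median log2 ratio of -0.09 over 8 genes of at least 1 FPKM, with 3 higher and 5 lower in SPE, against -0.04 over all genes. After upper quartile scaling all 8 were above 0, with a median of 0.12 against 0.15 over all genes. NASP was its highest gene. ASF1B, which passes H3-H4 to assembly factors, was at 62.5 FPKM in SPE and 66.5 FPKM in the control. RBBP7, a histone-binding subunit of several chromatin complexes, was at 24.8 and 28.9 FPKM in the SPE and control libraries (ratio 0.859, 0.819 to 0.901). DAXX, the chaperone that places H3.3 at heterochromatin, had 422 fragments in SPE and 462 in the control (ratio 0.936, 0.818 to 1.07). ATRX, its partner in that role, had 56 and 143 fragments in the SPE and control libraries over a span of 173817 bases (ratio 0.402, 0.290 to 0.551). HAT1, which acetylates newly made H4, had 107 and 47 fragments in the SPE and control libraries (ratio 2.34, 1.64 to 3.37). ATRX and HAT1 were both under 1 FPKM, HAT1 over a span of 58785 bases.

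The remaining lists held no gene at or beyond 2-fold under either rule. For FACT and the deposition of H2A-H2B and H2A.Z, 4 genes reached 1 FPKM with a median log2 ratio of 0.12. ANP32B, its highest gene, was at 44.4 FPKM in SPE and 40.5 FPKM in the control (ratio 1.10, 1.05 to 1.15). VPS72, which carries H2A.Z, had 387 and 362 fragments in the SPE and control libraries (ratio 1.10, 0.948 to 1.27). Of the FACT subunits, SUPT16H had 256 fragments in SPE and 155 in the control (ratio 1.69, 1.38 to 2.08). SSRP1 had 479 in SPE and 493 in the control (ratio 0.996, 0.877 to 1.13). For histone mRNA processing 3 genes reached 1 FPKM with a median of -0.02, which turned positive under 3 of the 4 scalings. LSM11, of the U7 particle that cuts histone mRNA, was its highest gene at 37.4 FPKM in SPE and 31.3 FPKM in the control (ratio 1.20, 1.13 to 1.26). SLBP, which binds the stem-loop of histone mRNA, had 197 and 236 fragments in the SPE and control libraries (ratio 0.856, 0.705 to 1.04).

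**Figure D5:**
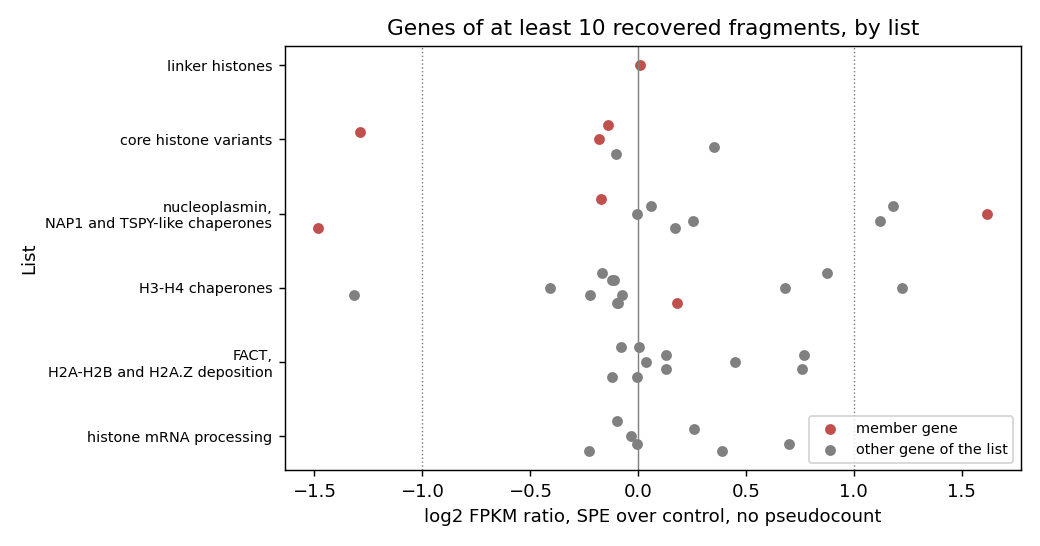
The log2 FPKM ratio of SPE over control without pseudocount (horizontal axis) of 45 genes averaging 10 or more recovered fragments, by list, with member genes in red and other genes in grey; vertical position within a list only separates the points. Beyond the dotted lines at 2-fold lie 4 genes to the right, TSPYL1 farthest, and 3 to the left, NAP1L1 farthest.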

How the data were processed

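The deposited table holds FPKM values made by the authors, with a gene identifier and a locus per row. Each of the 2 libraries was matched to 1 of its columns. The submitters' processing notes name Bowtie2 2.2.5, RSEM and a mouse build, mm9, yet the loci carry pig chromosome accessions. No source used here gives the annotation or build of the table. Chromosome numbers were read from those accessions, and start positions were raised by 1. Per the labels' protocols, each library came from 100 oocytes. The control and SPE columns numbered 1 were matched to the samples by name, and 2 further columns, Con2 and SPD2, that matched no sample were not used.

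Fragments were recovered by fitting, per library, the total and the length correction that make FPKM times the locus span whole for genes of few fragments; this was tested on simulated data. Because the authors divided by the whole span, the effect of this processing is that long genes appear low. Library totals of 5352951 (SPE) and 5492407 (control) fragments limit precision most for NPM2, H3F3A and NAP1L1. Differences were log2 ratios of SPE over control after adding 1 FPKM, for genes averaging 1 FPKM or more, or FPKM ratios with exact Poisson or Clopper-Pearson 95% intervals, which cover counting error only. With 1 matched library per group no test between groups was made.

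Members, lists and rules were chosen with earlier results of these data known. Named genes were all members, the highest gene of each list, list genes beyond 2-fold, the 3 genes nearest in level to H1FOO and to TSPYL1, and genes at member loci; others were added after seeing values. Alternatives covered the pseudocount, the filter, the fold rule, 4 scalings and, added later, recovered fragments. Python 3.11.15, pandas 2.3.3, numpy 2.4.6 and scipy 1.17.1 were used.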

Additional observations from a re-analysis of the deposited data

How the results depend on the processing

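TSPYL1 stayed at least 2-fold higher in SPE under every pseudocount and scaling tried, with log2 ratios from 1.22 to 1.73. Of the 5 members averaging at least 1 FPKM, 0 passed the 4-fold rule, beside 25 higher and 19 lower of all 4391 genes. No paired analysis was possible because each group has 1 library matched to a sample, and likewise no replicate was left out. Recovered fragments, chosen after seeing the data, gave 3 members and 7 list genes beyond 2-fold in place of 1 each, with 879 genes higher and 690 lower overall. Over all genes the 125 higher and 94 lower became 238 and 168 with a pseudocount of 0.1 FPKM, 23 and 15 with 5 FPKM, 226 and 158 with no filter, 17 and 7 at 10 FPKM or more, 331 and 249 with the 1.5-fold rule, and 25 and 19 with the 4-fold rule. Of the 27 list genes averaging at least 1 FPKM, 3 were beyond 2-fold with a pseudocount of 0.1 FPKM. At 1.5-fold 4 of the 27 were beyond the rule, and at 4-fold 0. The counts over all genes given above for these settings are out of 4391, and nothing is read from the list counts. Upper quartile scaling moved the median log2 ratio of all genes to 0.15 from -0.04 and gave 212 higher genes. It moved the median of all 8 members, including those under 1 FPKM, to 0.062. Under this scaling H2AFZ, H3F3B and NPM2 were higher in SPE. H1FOO was lower in SPE when both libraries were scaled to the same sum (-0.004). NAP1L1 reached -1.12 with a pseudocount of 0.1 FPKM. The causes were not tested, beyond what the rules themselves fix.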
